A study of Mus musculus with 26 samples.

Results

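The genes described here are 9 of the 18193 genes with a symbol of their own on the array. They are the Slit ligands Slit1, Slit2 and Slit3, the Slit receptors Robo1 and Robo2, and the netrin receptors Dcc, Unc5a, Unc5c and Unc5d. They were chosen by symbol, with earlier results of these arrays known, and not by their measured values. They have 17 probe sets in all, and the probe set with the highest mean over the 26 arrays stood for each gene. Genes with fewer than 2 arrays above the median of all probe sets (log2 6.14) were left out of the tests, which kept 13951 genes. Of the 9 genes 8 passed. Slit3 did not, and Unc5a passed on 4 of 26 arrays, so counts below cover the 8 that passed. The 4 arrays are those of AII and Cdh3 cells: Unc5a was tested because it was high there, so its calls in these subtypes are descriptions. Counts per comparison that include a call of Unc5a in the main fit are also given without it.

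The study profiled neurons sorted by reporter fluorescence from retinas of mice at postnatal day 6, for 13 subtypes with 2 biological replicates each, the replicates coming from different litters. The 6 ganglion cell subtypes were all Thy1+: BD (bistratified dendrite), J, W3 and W7 (YFP+, C57BL/6), Isl2+ (bgal+, C57BL/6) and a subset marked by a Cdh3 BAC (GFP+), whose strain reads Swiss Webster x C57BL/7 for replicate 1 and Swiss Webster x C57BL/8 for replicate 2. The 5 amacrine subtypes were starburst (Kusabira Orange+, Thy1–, C57BL/6), the J glycinergic subset (YFP+, C57BL/6), the PaxCre GABAergic subset (GFP+, C57BL/6), AII (GFP+, Swiss Webster x C57BL/6) and MP-positive (CFP+, VC1.1+, mixed C57BL/6 x CD1). The bipolar subtypes were ON bipolar (GFP+, C57BL/6) and MP-positive bipolar (CFP+, VC1.1–, mixed C57BL/6 x CD1). Strain thus changes with some subtypes. Each sort is defined by 1 reporter line.

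Slits are secreted proteins that bind Robo receptors on growing axons and dendrites, most often as repellents. Netrins are laminin-related ligands; Dcc mediates attraction to them, and Unc5 receptors, alone or together with Dcc, mediate repulsion. In the retina Slit and Robo signals guide ganglion cell axons within the eye and toward the chiasm, and Dcc is needed for ganglion cell axons to leave at the optic disc.

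RefSeq promoter windows, from 250 bases before to 50 after the annotated start, matched 6 of the 9 genes. The windows of 3 genes are printed because the results turn on them: Slit2 had the clearest class pattern of the ligands, and Robo1 and Unc5c were both high in J and PaxCre amacrine cells. Capitals mark E-boxes (CANNTG) and GC boxes (GGGCGG or its reverse complement CCGCCC), searched on both strands, with no overlap between matches. The Slit2 window held 3 GC boxes and no E-box, the Robo1 window 3 E-boxes and no GC box, and the Unc5c window neither motif. Of 32851 windows of the same length, 72.3% held an E-box and 35.7% a GC box, so a match is a description of the letters and not of a bound site.
Slit2 promoter, GRCm38.p6 chr5:47982905-47983204, + strand: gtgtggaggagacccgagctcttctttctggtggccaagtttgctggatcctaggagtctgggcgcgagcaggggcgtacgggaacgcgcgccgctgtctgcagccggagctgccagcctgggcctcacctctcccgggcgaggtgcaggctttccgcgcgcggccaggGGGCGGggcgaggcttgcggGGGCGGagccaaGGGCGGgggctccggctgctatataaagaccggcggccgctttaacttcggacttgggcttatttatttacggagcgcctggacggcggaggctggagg
Robo1 promoter, GRCm38.p6 chr16:72662899-72663198, + strand: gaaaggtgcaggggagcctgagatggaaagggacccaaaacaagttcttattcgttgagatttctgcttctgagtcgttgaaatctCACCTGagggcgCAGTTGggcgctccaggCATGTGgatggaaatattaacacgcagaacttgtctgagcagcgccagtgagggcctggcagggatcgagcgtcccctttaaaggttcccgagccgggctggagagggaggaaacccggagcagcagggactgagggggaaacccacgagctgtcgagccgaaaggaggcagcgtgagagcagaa
Unc5c promoter, GRCm38.p6 chr3:141465314-141465613, + strand: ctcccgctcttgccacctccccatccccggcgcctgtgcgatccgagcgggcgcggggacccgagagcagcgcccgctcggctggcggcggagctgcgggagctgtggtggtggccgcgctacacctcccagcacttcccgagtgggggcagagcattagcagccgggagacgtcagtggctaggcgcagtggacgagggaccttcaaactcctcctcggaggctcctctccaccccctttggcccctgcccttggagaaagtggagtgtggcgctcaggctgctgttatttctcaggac

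Levels are given as log2(intensity + 16) after quantile normalization, on which the floor of the deposited values lies at 4.09. They are compared for 1 gene across subtypes and not between genes, since probe sets differ in brightness. Differences on this scale understate the change of dim genes, so folds are given only where both sides lie above the median of all probe sets. The median deposited intensity of an array ranged from 61.5 to 74.8 in ganglion cells (12 arrays), against 37.4 to 47.1 in the 14 others, so the scale of the columns and the ganglion cell class cannot be told apart. Replicates correlated at 0.957 to 0.993 over genes. The 10 measured ganglion cell markers averaged 10.29 to 10.85 in ganglion cell subtypes and at most 7.01 elsewhere, and the 7 measured bipolar markers averaged 10.71 in ON and 9.54 in MP-positive bipolar cells and at most 7.76 elsewhere. Of these, Pcp2 stood at 6.34 and Trpm1 at 4.89 in MP-positive bipolar cells, against 12.05 and 6.76 in ON bipolar cells. The rest were high in both, given as MP-positive and ON: Otx2 (12.07 and 12.13), Cabp5 (11.88 and 11.98), Prdm8 (12.61 and 12.18), Vsx1 (10.19 and 10.42) and Lhx4 (8.76 and 9.44). All 9 microglia markers were on the array and averaged 7.40 to 10.04 in the ganglion cell subtypes against 5.47 to 7.01 in the others. All 7 vessel wall markers averaged 6.36 to 9.59 in ganglion cell subtypes, highest in J and Cdh3, against 4.71 to 5.67. The 6 measured rod markers averaged 8.71 to 9.05 in bipolar, 6.92 to 9.17 in amacrine (highest in MP-positive cells) and 5.42 to 6.85 in ganglion cell subtypes. The 7 endothelial markers averaged 5.62 to 6.22 in every subtype. All 8 amacrine markers were on the array and averaged 8.46 to 10.23 in amacrine subtypes against 6.21 to 7.51 elsewhere, highest there in J ganglion cells. In sorted pools, fewer cells of a type and less RNA per cell cannot be told apart.

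**Figure D1:**
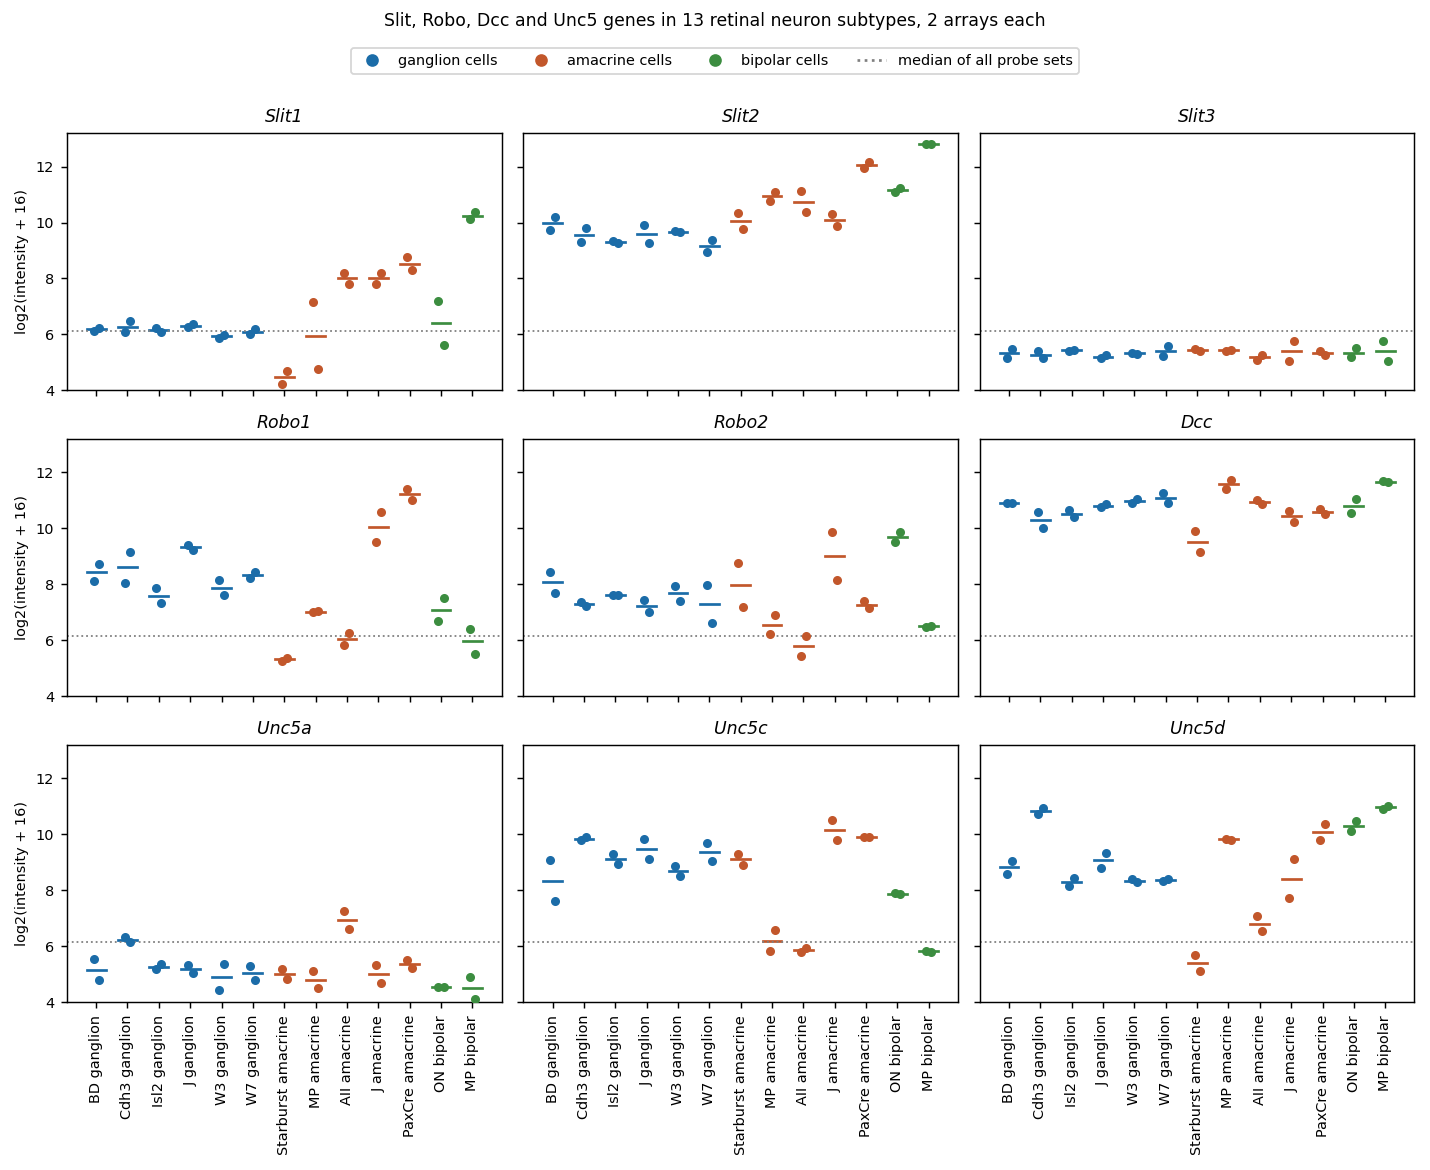
Level of each of the 9 genes, as log2(intensity + 16) after quantile normalization (y axis), in 13 subtypes (x axis); each point is 1 array, each bar the mean of 2 arrays, and the dotted line the median of all probe sets (6.14). Slit2 was highest in MP-positive bipolar and PaxCre amacrine cells, Robo1 was highest in PaxCre and J amacrine cells, and Slit3 lay under the dotted line on all 26 arrays.

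Slit2 was measured above the median of all probe sets on 26 of 26 arrays and was the ligand with the steadiest class order: ganglion cells lowest, amacrine cells between, bipolar cells highest. It read 11.10 and 11.25 in ON bipolar and 12.81 and 12.82 in MP-positive bipolar cells. Its lowest, median and highest array were 9.77, 10.57 and 12.15 in the amacrine subtypes and 8.94, 9.52 and 10.20 in the ganglion cell subtypes. The 4 bipolar arrays lay above all 12 ganglion cell arrays, while both classes overlapped the amacrine range.

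The order of Slit2 levels ran from MP-positive bipolar (12.81 ± 0.01, SD, n = 2) through PaxCre amacrine (12.05 ± 0.14) and ON bipolar (11.17 ± 0.10) to MP-positive amacrine cells (10.93 ± 0.22), and these 4 neighbours did not overlap. Below them AII (10.74 ± 0.53) overlapped MP-positive amacrine cells, and J amacrine (10.08 ± 0.32), starburst (10.05 ± 0.40) and BD ganglion cells (9.97 ± 0.33) overlapped one another. The remaining 5 ganglion cell subtypes lay between 9.16 and 9.67, each overlapping its neighbour. Slit2 has 2 further, dimmer probe sets, whose subtype means correlated with the brightest at 0.97 and 0.87 over 13 subtypes. Both gave the same class order, with bipolar minus ganglion differences of 3.56 ± 0.16 (SE) and 4.63 ± 0.39. They parted in PaxCre cells, where 1 gave 1.68 ± 0.22 above the other amacrine subtypes and the other -0.18 ± 0.53.

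Slit1 cannot be given 1 pattern, because its 2 probe sets disagreed. They were nearly equally bright (means of 6.82 and 6.81 over 26 arrays), and their subtype means correlated at -0.23. Probe set 1440056_at, which by a narrow margin stood for the gene, read 5.88, 6.17 and 6.48 (lowest, median, highest) in ganglion cells, 4.22, 7.80 and 8.77 in amacrine cells and 5.62, 8.66 and 10.38 over the 4 bipolar arrays. Probe set 1425277_at read 7.43, 7.78 and 8.16 in ganglion cells, 5.32, 5.96 and 6.30 in amacrine cells and 5.88, 6.36 and 6.61 in bipolar cells. On the latter, all 12 ganglion cell arrays lay above all 14 others.

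In a fit of all 24604 probe sets with 1 symbol, ganglion minus amacrine was -0.83 ± 0.23 (SE; limma adjusted p = 0.00384) for 1440056_at and 1.87 ± 0.10 for 1425277_at. Bipolar minus ganglion was 2.17 ± 0.31 for the former and -1.44 ± 0.14 for the latter. Which probe set follows Slit1 transcripts more closely was not tested. Unless another probe set is named, every Slit1 difference and correlation below is that of 1440056_at. By that probe set Slit1 was highest in MP-positive bipolar cells (10.11 and 10.38), then PaxCre (8.77 and 8.29), AII (8.20 and 7.80) and J amacrine cells (7.79 and 8.21), of which AII and J overlapped. It was lowest in starburst cells (4.22 and 4.71). ON bipolar (7.21 and 5.62) and MP-positive amacrine arrays (7.14 and 4.78) were far apart within the subtype, and both overlapped the ganglion cell levels. The probe sets agreed in direction on starburst cells, which were lowest of all 13 subtypes by both.

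**Figure D2:**
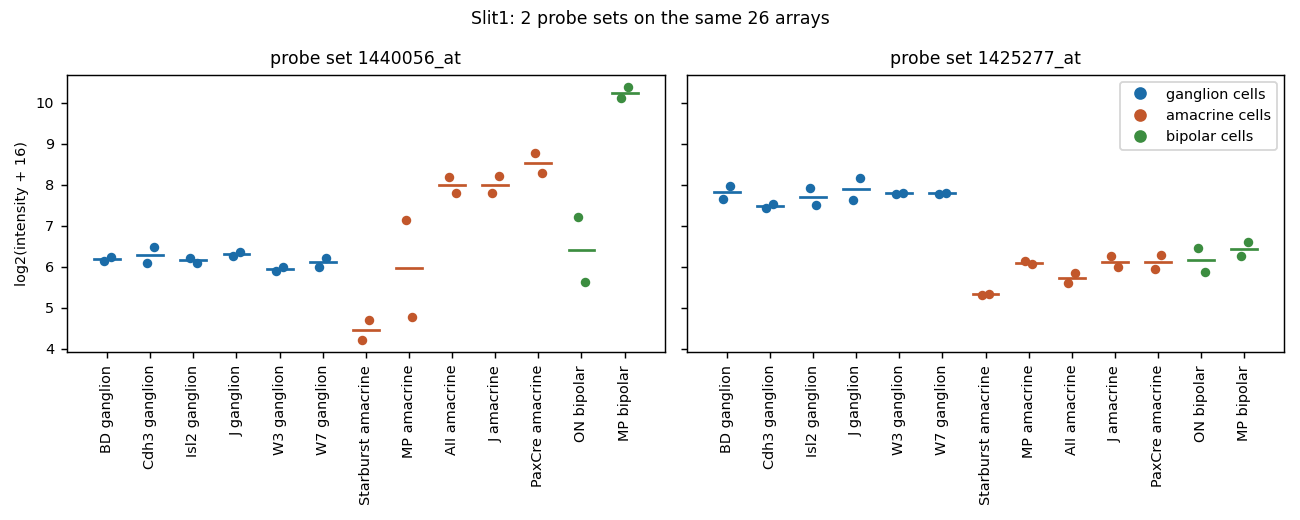
The 2 probe sets of Slit1 on the same 26 arrays, as log2(intensity + 16) after quantile normalization (y axis), by subtype (x axis); points are arrays and bars means of 2 arrays. Probe set 1440056_at was high in MP-positive bipolar and in 3 amacrine subtypes, whereas 1425277_at was high in all 6 ganglion cell subtypes (7.43 to 8.16).

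Slit3 lay between 5.04 and 5.77 on the 26 arrays, under the median of all probe sets on each of them. Its subtype means ran from 5.18 in AII to 5.44 in starburst cells, with every neighbour in the order overlapping. With no filter on dim genes its range over the 13 subtypes was 0.26 (limma adjusted p = 0.993). A difference in Slit3 was not detectable at this brightness.

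Robo1 spanned the widest range of the receptors in the amacrine class. It read 11.41 and 11.02 in PaxCre cells and 9.52 and 10.59 in J amacrine cells, against 7.00 and 7.04 in MP-positive, 5.85 and 6.25 in AII and 5.27 and 5.37 in starburst cells. The 5 amacrine subtypes thus fell into a high pair and a low set of 3, with no overlap between PaxCre, J and the remaining subtypes. All 12 ganglion cell arrays fell between those extremes, at 7.32, 8.19 and 9.41 (lowest, median, highest), with J ganglion cells at the top (9.41 and 9.22). Bipolar arrays were low, at 6.68 and 7.51 in ON and 6.41 and 5.52 in MP-positive cells.

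In the order of Robo1 levels, PaxCre (11.22 ± 0.27, SD, n = 2), J amacrine (10.05 ± 0.76) and J ganglion cells (9.32 ± 0.13) were each apart from the next. Cdh3 (8.60), BD (8.43) and W7 ganglion cells (8.34) overlapped in turn, as did W3 (7.88), Isl2 (7.59), ON bipolar (7.09) and MP-positive amacrine cells (7.02). AII (6.05) overlapped MP-positive bipolar cells (5.97), and starburst cells (5.32) stood below both. Robo1 has 2 dimmer probe sets. One ranged over 0.58 in the 13 subtype means (limma adjusted p = 0.0557, all probe sets tested) and correlated with the brightest at 0.03. The other was also high in PaxCre cells (2.03 ± 0.20, SE, above the other amacrine subtypes) but not in J amacrine cells, where its mean was 4.87. On both, J ganglion cells had the lowest mean of the 6 ganglion cell subtypes (6.27 and 5.78).

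Robo2, the second Slit receptor, had a different order from Robo1. It was highest in ON bipolar cells (9.53 and 9.89), which overlapped J amacrine cells (9.88 and 8.15). MP-positive bipolar cells, by contrast, read 6.47 and 6.53. AII amacrine cells were lowest (5.44 and 6.17). The 12 ganglion cell arrays read 6.61, 7.52 and 8.45 (lowest, median, highest), and their subtype means lay within 0.86 of each other. Starburst replicates differed by more than a unit (8.77 and 7.20), as did those of W7 (7.98 and 6.61), so the place of these subtypes in the order is loose. Robo2 has 1 probe set.

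Dcc was bright in every subtype, at 9.15 or above on all 26 arrays. MP-positive bipolar (11.70 and 11.65) and MP-positive amacrine cells (11.41 and 11.75) were highest and overlapped. Starburst cells were lowest (9.90 and 9.15), below all 24 other arrays. The 6 ganglion cell subtypes lay between 10.29 (Cdh3) and 11.09 (W7), and most neighbours between these ends overlapped. A further probe set of Dcc correlated with it at 0.65 over the subtype means, and a dim one, which did not pass the filter, at -0.13.

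Unc5a was near the floor in most subtypes and above the median of all probe sets in AII amacrine cells (7.25 and 6.63), and in 1 and the other replicate of Cdh3 ganglion cells (6.32 and 6.14). Every other array read between 4.11 and 5.54. AII and Cdh3 were apart from each other and from the rest, whose neighbours in the order all overlapped.

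Unc5c was high in the same pair of amacrine subtypes as Robo1 but, unlike Robo1, also in starburst cells. J amacrine (10.50 and 9.78) and PaxCre cells (9.90 and 9.89) were highest and overlapped, and starburst cells came next among amacrine subtypes (9.30 and 8.92). By mean, Cdh3 (9.84), J (9.48), W7 (9.37) and Isl2 ganglion cells (9.12) lay between PaxCre and starburst cells. Both Cdh3 arrays lay within the J amacrine range. MP-positive (5.82 and 6.58) and AII cells (5.80 and 5.94) were at the low end together with MP-positive bipolar cells (5.84 and 5.79). ON bipolar cells were between (7.89 and 7.86). The ganglion cell arrays read 7.61, 9.10 and 9.89 (lowest, median, highest), with BD replicates far apart (9.07 and 7.61). The dimmer of its 2 probe sets correlated with the brighter at 0.88, over a smaller range (1.64 against 4.32 over the 13 subtype means).

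Unc5d was high in both bipolar subtypes (10.12 and 10.46 in ON, 10.92 and 11.02 in MP-positive), in Cdh3 ganglion cells (10.71 and 10.96) and in PaxCre (9.81 and 10.37) and MP-positive amacrine cells (9.83 and 9.80). The other 5 ganglion cell subtypes lay between 8.14 and 9.33. Among them J overlapped BD, W7 overlapped W3 and W3 overlapped Isl2, while BD lay above W7. AII (7.07 and 6.54) and starburst cells (5.69 and 5.12) were lowest and apart from each other. J amacrine replicates differed (7.71 and 9.12).

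All 8 genes (7 of 7 without Unc5a) differed over the 13 subtypes by limma's F test with a range of at least 1 log2 unit, but so did 71.3% of all genes tested, and the counts below are read against such shares. The ranges were 5.90 for Robo1, 5.78 for Slit1, 5.57 for Unc5d, 4.32 for Unc5c, 3.90 for Robo2, 3.65 for Slit2, 2.43 for Unc5a and 2.15 for Dcc. Their median range was 4.11, against 1.58 over all genes tested. All 8 (7 of 7 without Unc5a) also differed over the 5 amacrine subtypes, where 40.2% of all genes did. Their median range there, Unc5a included, was 3.64 against 0.92. Over the 6 ganglion cell subtypes 1 of 8 differed, Unc5d (range of 2.55, limma adjusted p = 5.69e-04), against 5.94% of all genes. In C57BL/6 subtypes alone, which leave out Cdh3, its range was 0.78 (adjusted p = 0.589). With the next brightest probe set the range of Robo1 was 0.58 over the 13 subtypes, and neither Robo1 nor Slit1 was called over the amacrine subtypes. The spread of the 8 genes thus lay among amacrine and bipolar subtypes more than among ganglion cell subtypes, as a description, since ranges over 5 and 6 subtypes were not tested against each other.

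Between ganglion cells and amacrine cells 1 of 8 genes was called (adjusted p under 0.05 and at least 1 log2 unit), where 24.8% of all genes were. Slit2 was lower in ganglion cells by a difference of -1.23 ± 0.12 (SE; limma adjusted p = 6.31e-08), 2.34-fold. Unc5c (0.90 ± 0.16) and Unc5d (0.85 ± 0.15) were above, and Slit1 (-0.83 ± 0.23) below, without reaching 1 unit. The 95% interval of the difference was 0.07 to 0.79 for Robo1, -0.28 to 0.69 for Robo2, -0.07 to 0.38 for Dcc and -0.45 to 0.19 for Unc5a.

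The deposited columns carry the scale gap between ganglion cell arrays and the others, and without normalization the median of all genes tested moved to 0.53 above amacrine cells, from 0.0027 here. With columns as deposited, 85.8% of called genes were higher in ganglion cells, against 63.7% after normalization. With that shift included, Slit2 differed by -0.73 and lost its call, and Unc5c (1.36) and Unc5d (1.30) passed the threshold. Relative to the shift, Slit2 stood at -1.25, Unc5c at 0.83 and Unc5d at 0.78, close to the normalized values. Bipolar minus ganglion moved by as much the other way, with 15.8% of called genes higher against 37.7%. In C57BL/6 subtypes alone, which leave out MP-positive, AII and Cdh3 cells, Slit2 was again lower in ganglion than in amacrine cells (-1.19), while Robo1 (-0.55) and Unc5c (-0.71) were lower and not higher. Without J and Cdh3 ganglion cells, where vessel wall markers were highest, the Slit2 difference was -1.24 and that of Unc5d 0.35.

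Between bipolar and amacrine cells 5 of 8 genes were called, against 10.4% of all genes. Unc5d was higher in bipolar cells by 2.52 ± 0.21 (SE; limma adjusted p = 2.65e-08), Slit1 by 1.34 ± 0.31 (0.00278) and Slit2 by 1.22 ± 0.17 (2.06e-05). Robo1 was lower by a difference of -1.40 ± 0.24 (1.66e-04) and Unc5c by -1.40 ± 0.23 (1.06e-04). Dcc (0.62 ± 0.15), Robo2 (0.77 ± 0.32) and Unc5a (-0.89 ± 0.21) did not reach the threshold. Arrays of the 2 classes overlapped for each of the 5. The Slit1 difference was 0.94, under the threshold, without ON bipolar replicate 1, and in C57BL/6 subtypes alone it was -0.58 and that of Slit2 0.45. With the next brightest probe set the calls of Slit1 (0.42), Robo1 (-0.20) and Unc5c (-0.77) were lost, and with the median over probe sets that of Robo1 (-0.17). Rod markers were also higher in bipolar than in most amacrine subtypes, and their part in these differences was not tested. With subtype means as units, which asks whether 2 bipolar subtypes differ from 5 amacrine subtypes beyond the spread of subtypes, 0 of 8 were called.

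Between bipolar and ganglion cells 5 of 8 genes were called, against 29.6% of all genes. Slit2 was 5.47-fold higher in bipolar cells (2.45 ± 0.17, SE; limma adjusted p = 3.48e-10), with no overlap of arrays. Slit1 (2.17 ± 0.31) and Unc5d (1.68 ± 0.20) were also higher, and Unc5c (-2.30 ± 0.22) and Robo1 (-1.83 ± 0.23) lower. With the next brightest probe set Slit1 (-1.44) and Robo1 (0.12) turned direction and Unc5c was -0.88, and in C57BL/6 subtypes alone Slit1 was 0.27. Rod markers moved with this comparison too, and their part was not tested. With subtype means as units, Slit2 alone of the 8 remained called (adjusted p = 0.00165).

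**Figure D3:**
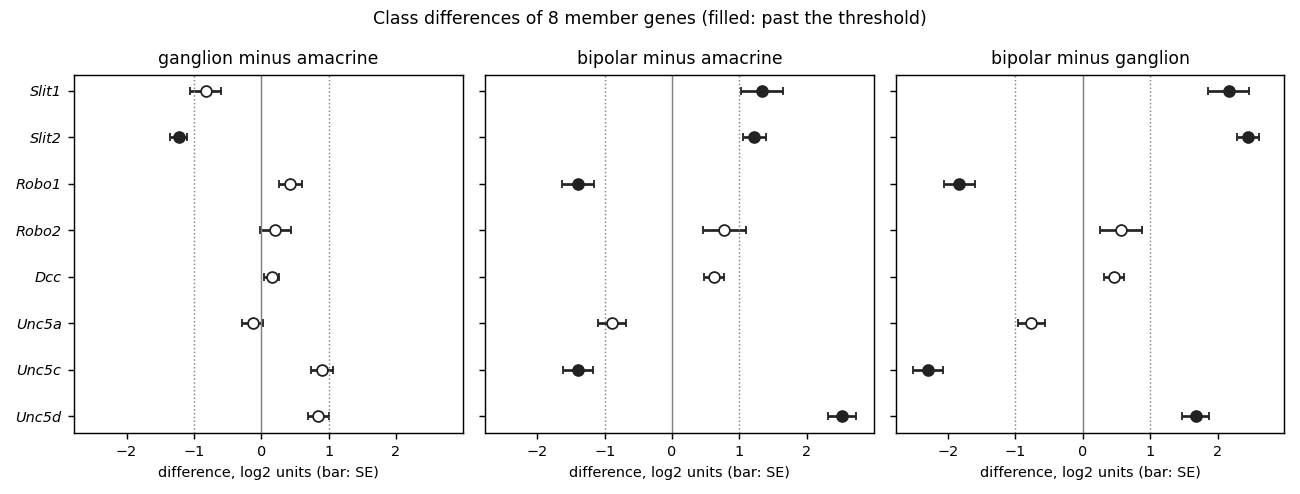
Differences between cell classes in log2 units (x axis) for the 8 tested genes (y axis); points are limma estimates, bars their SE, filled points passed the threshold and dotted lines mark 1 unit. Slit2 was past the threshold in all 3 class comparisons, and Robo1 and Unc5c were low and Unc5d high in bipolar cells against both other classes.

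Of the amacrine subtypes, starburst cells, which release both acetylcholine and GABA, differed from the mean of the other amacrine subtypes in 5 of 8 genes, against 10.9% of all genes. Unc5d (-3.38 ± 0.28, SE; limma adjusted p = 4.19e-08), Robo1 (-3.27 ± 0.32) and Slit1 (-3.16 ± 0.42) were lower and lay under the median of all probe sets in starburst cells, so the size of these differences depends on the pseudocount: with 64 in place of 16 they were -2.49, -2.46 and -1.89. Dcc was 2.57-fold lower (-1.36 ± 0.20). For each of these 4 genes, both starburst arrays lay below all 8 other amacrine arrays. Unc5c was higher (1.08 ± 0.30, adjusted p = 0.0135), but it lay below J and PaxCre cells. That call was lost without either starburst array, without MP-positive amacrine replicate 1 and without J amacrine replicate 2 (0.89 to 1.28 over single arrays left out), and against C57BL/6 subtypes alone, J and PaxCre, the difference was -0.91. The Dcc call was lost without starburst replicate 2 and in C57BL/6 subtypes alone (-0.99 in each). Robo1 (0.22) and Slit1 (-0.69) were not called with the next brightest probe set.

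PaxCre cells, a GABAergic subset, were higher in 5 of 8 genes and lower in none, against 6.54% of all genes called in either direction. Robo1 was above the mean of the other amacrine subtypes by 4.11 ± 0.32 (SE; limma adjusted p = 6.04e-08), Unc5d by 2.48 ± 0.28, Unc5c by 2.07 ± 0.30, Slit1 by 1.92 ± 0.42 and Slit2 by 1.60 ± 0.23, which is 3.03-fold. Both PaxCre arrays lay above all other amacrine arrays for Robo1, Slit1 and Slit2. The Slit1 call was lost without PaxCre replicate 1. Slit1 (0.30), Slit2 (-0.18) and Robo1 (0.16) were not called with the next brightest probe set, and in C57BL/6 subtypes alone Unc5c was 0.27 (adjusted p = 0.791). Unc5d was called under each alternative that gave it a value. It has 1 probe set, so the alternatives on probe sets could not change its values.

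J amacrine cells, labelled a glycinergic subset, were higher in 3 of 8 genes, all receptors, against 6.06% of all genes. These were Robo1 (2.65 ± 0.32, SE; limma adjusted p = 2.00e-05), Unc5c (2.37 ± 0.30) and Robo2 (2.11 ± 0.42). The Robo2 difference was 1.24 without J amacrine replicate 1 and 1.39 in C57BL/6 subtypes alone, and the call was lost in both. The Unc5c call was lost with the next brightest probe set (0.66) and in C57BL/6 subtypes alone (0.64). That of Robo1 was lost with the next brightest probe set (0.12) and the median over probe sets (0.54). In J amacrine cells the glycine transporter gene Slc6a9 read 11.69, against 8.29 in PaxCre cells. Gad1, a gene of GABA synthesis, read 10.82, against 12.30 in PaxCre, 5.75 in AII and 6.20 in MP-positive amacrine cells, while Gad2 (7.43) was lowest of the amacrine subtypes. The part of GABAergic cells in the J amacrine differences was not tested.

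AII cells, glycinergic interneurons of the rod pathway, differed in 6 of 8 genes (5 of 7 without Unc5a), against 16.2% of all genes. Unc5c (-2.97 ± 0.30, SE; limma adjusted p = 7.90e-07), Robo1 (-2.35 ± 0.32), Robo2 (-1.90 ± 0.42) and Unc5d (-1.63 ± 0.28) were lower, and Slit1 was higher (1.26 ± 0.42, adjusted p = 0.0248). Unc5a stood 1.89 above the other amacrine subtypes, which lay near the dim end. For Unc5a and Robo2 no AII array overlapped another amacrine array. The Robo2 call was lost without AII replicate 1, and that of Slit1 without either AII array or without MP-positive amacrine replicate 2. Neither Robo1 (-0.14) nor Slit1 (-0.19) was called with the next brightest probe set.

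MP-positive amacrine cells differed in 5 of 8 genes, against 10.4% of all genes. Against the mean of the other amacrine subtypes Unc5c was lower (-2.55 ± 0.30, SE, limma adjusted p = 8.52e-06), as were Slit1 (-1.29 ± 0.42) and Robo1 (-1.14 ± 0.32). Unc5d (2.14 ± 0.28) and Dcc (1.20 ± 0.20) were higher. By subtype, Robo1 (7.02) lay above AII (6.05) and starburst cells (5.32), and Unc5d (9.82) below PaxCre cells (10.09). Robo1 was not called with the next brightest probe set or with the median over probe sets (0.058). The Slit1 difference ranged from -2.47 to -0.11 with single arrays left out and was -0.11 without MP-positive amacrine replicate 2 (4.78, against 7.14 in replicate 1). Its call was also lost without starburst replicate 2, AII replicate 1 or PaxCre replicate 1. The Robo1 call was lost without either MP-positive amacrine array, and without replicate 2 the subtype had 3 called genes. The Dcc call was lost with the next brightest probe set (0.51, adjusted p = 0.146), on which AII cells (10.42) stood above MP-positive amacrine cells (9.94). In these cells the bipolar markers averaged 7.76, the highest outside the bipolar subtypes, and the rod markers 9.17, the highest of the 13 subtypes, and their part in these differences was not tested.

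Among ganglion cells, the Cdh3 subset differed from the other 5 subtypes in 2 of 8 genes (1 of 7 without Unc5a), against 2.09% of all genes. Unc5d was 4.78-fold higher (2.26 ± 0.27, SE; limma adjusted p = 4.18e-05), and both arrays lay above the other 10 ganglion cell arrays by more than a unit. Unc5a stood 1.12 above the other ganglion cell subtypes, which lay near the dim end. The Unc5d call was kept with every array left out (2.13 to 2.38), while Unc5a lost its place among the calls without either Cdh3 array and without Isl2 replicate 1. The vessel wall markers averaged 8.53 in Cdh3 and 9.59 in J ganglion cells, and Unc5d read 8.80 and 9.33 in the latter. Cdh3 was also the 1 ganglion cell subtype of another strain, so strain and subtype cannot be told apart here.

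For the remaining ganglion cell subtypes limma called 0 of 8 genes: BD, against 0.495% of all genes, Isl2 (0.222%), J (2.04%), W3 (0.803%) and W7 (1.37%). At an unadjusted p under 0.05, 2 of 8 genes differed in BD, 2 in Isl2, and 1 each in J, W3 and W7. The nearest to a call was Robo1 in J ganglion cells, 1.15 ± 0.31 (SE) above the other 5 subtypes with a limma adjusted p of 0.0541. In these cells the 8 amacrine markers averaged 7.51 (7.03 and 7.98 on the arrays), against 6.24 to 6.85 in the other ganglion cell subtypes. Robo1 averaged 10.05 in J amacrine cells. The vessel wall markers were also highest in J ganglion cells (9.59, against 6.36 to 8.53 in the other ganglion cell subtypes). The parts of amacrine and of vessel wall RNA in the Robo1 difference were not tested. On the 2 dimmer probe sets of Robo1, J ganglion cells had the lowest mean of the 6 ganglion cell subtypes (6.27 and 5.78). On the brightest, both J ganglion arrays (9.41 and 9.22) lay above the other 10, the highest of which was 9.15 in Cdh3 replicate 2. The difference was called in 8 of the 26 fits that left out 1 array each. In BD, Unc5c was -0.97 ± 0.30 below the rest, and the replicates lay apart: it was -1.69 (adjusted p = 0.00333, with the spread taken from the other subtypes) without BD replicate 1 and -0.24 without BD replicate 2.

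**Figure D4:**
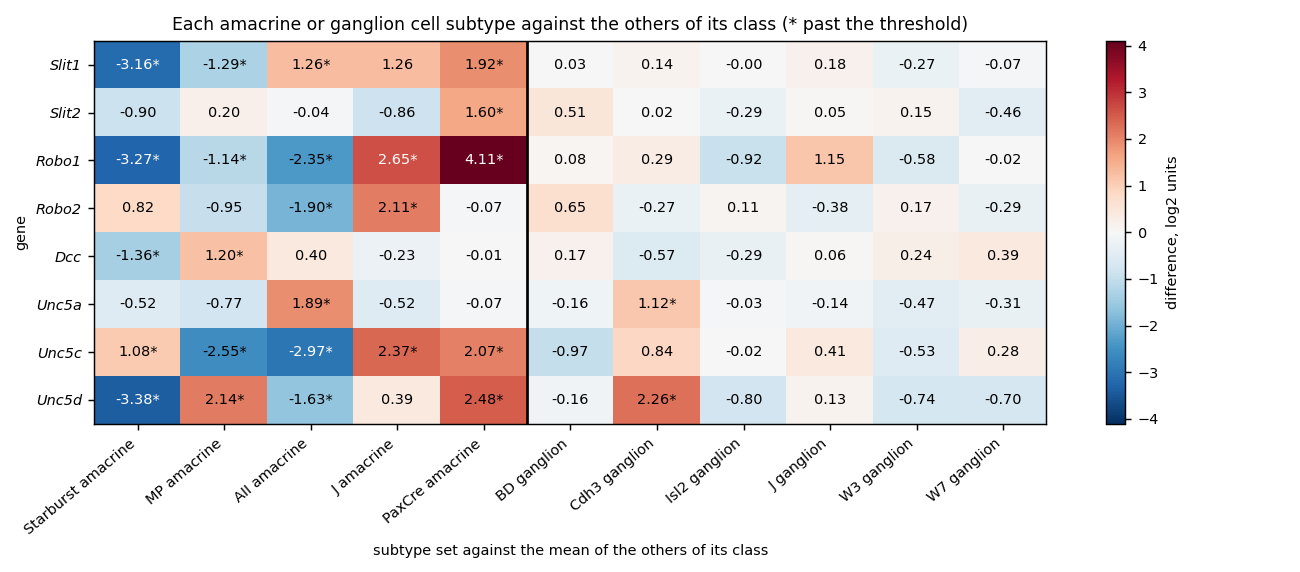
Difference in log2 units (colour and number) of each amacrine or ganglion cell subtype (x axis) from the mean of the other subtypes of its class, for the 8 tested genes (y axis); asterisks mark limma adjusted p under 0.05 and at least 1 unit. Amacrine subtypes had 3 to 6 genes past the threshold each, and ganglion cell subtypes had 0, except Cdh3 with 2. The counts of AII and Cdh3 include Unc5a, which was tested because it was high in these subtypes.

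The pair of bipolar subtypes differed in 4 of 8 genes, against 5.03% of all genes. In ON bipolar cells Slit1 was lower (-3.83 ± 0.53, SE; limma adjusted p = 7.76e-05) and Slit2 3.12-fold lower (-1.64 ± 0.29) than in MP-positive bipolar cells, and Robo2 (3.21 ± 0.54, 9.26-fold) and Unc5c (2.06 ± 0.38) were higher. Arrays of the subtypes did not overlap for any of the 4. Neither Slit1 (-0.27) nor Unc5c (-0.036) was called with the next brightest probe set. Robo2 and Slit2 were called under each alternative that gave them a value. Robo2 has 1 probe set, so the alternatives on probe sets could not change its values. The strains of these subtypes differ, and strain and subtype cannot be told apart.

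Subtypes marked by the same reporter line allow a comparison within a line. In the MP line, bipolar cells were higher than amacrine cells in 3 of 8 genes, against 8.37% of all genes: Slit1 by 4.29 ± 0.53 (SE; limma adjusted p = 1.26e-05), Slit2 by 1.88 ± 0.29 and Unc5d by 1.15 ± 0.35 (adjusted p = 0.0399). The Slit1 difference went from 3.10 to 5.47 when an MP-positive amacrine array was left out, and it was 0.34 and not called on the other probe set. The Unc5d call was lost without any of the 4 arrays of the line, and without either array of Isl2 or of W3 ganglion cells. In the J line, ganglion cells were lower than amacrine cells in 2 of 8 genes, against 30.8% of all genes: Robo2 by a difference of -1.80 ± 0.54 (adjusted p = 0.0109) and Slit1 by -1.68 ± 0.53 (adjusted p = 0.0148). Without J ganglion replicate 2 neither was called. With columns as deposited, which carry the scale gap, both calls were lost and another gene was called instead. The Slit1 call was also lost without J ganglion replicate 1 or J amacrine replicate 2, and that of Robo2 without J amacrine replicate 1 (-0.93). On the other probe set of Slit1 the J line difference was 1.78 ± 0.23, in the opposite direction.

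Robo1 and Unc5c had the closest profiles among pairs of receptors here, with a Pearson correlation of 0.69 over the 13 subtype means. Slit1, by probe set 1440056_at, and Slit2 correlated at 0.74. The other Slit1 probe set, nearly as bright, was highest in ganglion cells, where Slit2 was lowest, and its correlation with Slit2 was not computed. Dcc and Unc5c ran opposite (-0.66). These are descriptions, since the means share arrays and normalization. By the same measure, among 4956 genes whose means ranged over at least 2 units, the genes nearest to Robo1 were Gng8 (0.94), Ccdc88b (0.94) and Maf (0.91), those nearest to Unc5c were Ano10 (0.98), Zdhhc22 (0.95) and Nol12 (0.91), and those nearest to Slit2 were Fezf2 (0.91), Zfp975 (0.90) and Wnt4 (0.89). Nearest to Unc5a were Olfm4 (0.93), Galnt18 (0.90) and Syndig1 (0.90), and nearest to Dcc were Zfp677 (0.89), Mpp7 (0.88) and AI504432 (0.84). Nearest to Slit1, again by probe set 1440056_at alone, were Cyp7b1 (0.89), Krt18 (0.81) and Adcy8 (0.80). Nearest to Robo2 were Slx1b (0.86), Gm5817 (0.81) and Prkca (0.78), and to Unc5d Lrrc75a (0.83), Rnd2 (0.82) and Nucb2 (0.82).

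Of 19 further ligands and receptors tied to these pathways, 15 passed the filter on dim genes and 10 of them differed over the 13 subtypes. This share lay slightly below and close to the 71.3% of all genes, so the count is not a result about these genes. Ntn1, the ligand of Dcc and Unc5 receptors, lay at 5.93 to 6.49 in the subtype means, and its range was 0.55 (limma adjusted p = 0.747). Ntn4, a netrin of basement membranes, averaged 10.01 ± 0.42 (SD, n = 2) in AII cells and 1.94 ± 0.24 (SE) more than in the other amacrine subtypes, while Ntn3 and Ntng2 did not pass the filter. Ntng1, a membrane-bound netrin that does not bind Dcc, was higher by class in ganglion cells (3.14 ± 0.13) and bipolar cells (2.86 ± 0.18) than in amacrine cells. Its mean was 11.46 in ON bipolar cells but 8.36 in MP-positive bipolar cells, below MP-positive (8.60) and PaxCre amacrine cells (8.53). Starburst (4.87) and AII cells (5.55) were lowest. Neo1, the relative of Dcc, varied little, at 10.35 to 11.34. The remaining family receptors Robo3 (5.64 to 6.34) and Unc5b (5.80 to 6.71) were dim in the subtype means and were not called, and Robo4 did not pass the filter.

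Flrt2, a membrane ligand of Unc5d, was lower in bipolar cells than in amacrine (-3.30 ± 0.19, SE) and ganglion cells (-4.88 ± 0.19, limma adjusted p = 1.89e-13), while Unc5d was higher in bipolar cells. Both were high in Cdh3 ganglion (Flrt2 11.03, Unc5d 10.83) and PaxCre amacrine cells (10.68 and 10.09), and they parted in starburst cells (10.57 and 5.41). Their relation was not tested. Flrt3, which binds Robo1 and Unc5 receptors, was lower in ganglion than in amacrine cells (-1.90 ± 0.18) and highest in PaxCre cells (10.8). Nell2, a ligand of Robo3, was higher in ganglion than in amacrine cells (2.11 ± 0.13), and among ganglion cells it was highest in the Isl2 subtype (1.75 ± 0.24 above the others). Draxin, which binds Dcc and netrin, was higher in starburst cells than in the other amacrine subtypes (2.27 ± 0.22). The netrin receptor Dscam was lower in starburst (-2.47 ± 0.22) and AII cells (-2.14 ± 0.22) and higher in PaxCre (2.07 ± 0.22) and J cells (1.52 ± 0.22), and its relative Dscaml1 was lower in starburst cells (-4.58 ± 0.50). Rgmb, a Neo1 ligand, was higher in AII cells (2.58 ± 0.35).

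Between classes, 7 of these 15 genes were called in ganglion against amacrine cells (3 higher, 4 lower), 7 in bipolar against amacrine cells (2 higher, 5 lower) and 6 in bipolar against ganglion cells (2 higher, 4 lower), where 24.8%, 10.4% and 29.6% of all genes were called. A further list held 40 genes, mostly intracellular partners and co-receptors, of which 37 were tested. Of these, 11 (8 higher, 3 lower), 7 (1 higher, 6 lower) and 9 (2 higher, 7 lower) were called in the same comparisons. The last is a share slightly below that of all genes, and the shares were not tested against those of all genes. The median difference of the 37 genes in bipolar against ganglion cells was -0.59, against 0.02 over all genes. The 4 that differed most between ganglion and amacrine cells all had a limma adjusted p under 0.05. They were Nell1, a secreted relative of Nell2 (3.70 ± 0.10, SE), Gpc4, a heparan sulfate glypican (-2.42 ± 0.17), Trim67 (1.55 ± 0.16) and Ablim1, an actin-binding protein (1.38 ± 0.14).

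**Figure D5:**
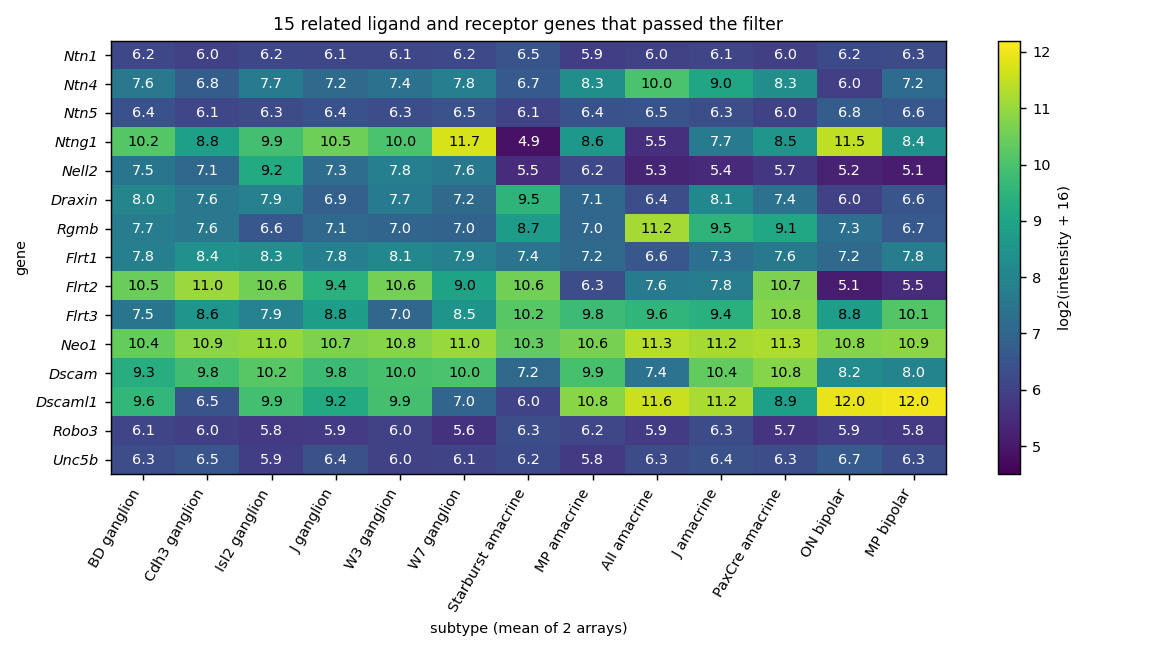
Mean level of 2 arrays, as log2(intensity + 16) after quantile normalization (colour and number), of the 15 tested related ligand and receptor genes (y axis) in 13 subtypes (x axis). Flrt2 was low in both bipolar subtypes (5.1 and 5.5), Ntn4 was highest in AII cells (10.01), and Neo1 lay between 10.3 and 11.3 in all subtypes.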

How the data were processed

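Neurons of 13 subtypes were profiled on 26 single-colour Affymetrix arrays. The values are intensity values as deposited by the authors, linear, with a lowest value of 1. Their software and scaling are not given in the sources used. Per the labels, papain was used to dissociate the tissue, and RNA was isolated with PicoPure and amplified in 2 rounds (MessageAmp II-biotin), which can distort levels. The members and all lists were chosen with earlier results of these data known.

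Values were taken as log2(intensity + 16) and quantile normalized over the 26 arrays. Of 45037 probe sets (64 controls left out), 34945 had 1 symbol, 932 several and 9160 none; 34741 symbols were updated by gene identifier. The brightest probe set stood for each of 18193 genes. Genes with at least 2 arrays above log2 6.14 were tested: 13951. Tests used R 4.3.3 and limma 3.58.1 with a mean per subtype (13 residual and 4.59 prior degrees of freedom), two-sided, Benjamini-Hochberg adjusted within each of 17 comparisons and 3 F tests over all genes tested. A call needed an adjusted p under 0.05 and 1 log2 unit. Replicates came from different litters, per the series' design, and errors come from 2 replicates per subtype. The number of arrays limits the precision. Every member is named, further ligands and receptors are described by list, and the nearest 3 genes are given by correlation. The tests were checked on simulated data. Alternatives covered normalization, pseudocount, filter, probe set, variance model, array weights, replicate number, strain, unit and each array left out (the array left alone in a subtype was then assumed to vary like the others). After the data were seen, tests of every probe set and the class comparisons without J and Cdh3 ganglion cells were added.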

Additional observations from a re-analysis of the deposited data

How the results depend on the processing

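Of the 63 member calls, 23 were kept in all of the 16 alternatives and 26 left-out arrays that gave them a value, and 11 turned direction in at least 1. These counts include Unc5a, which was tested because it was high in AII and Cdh3 cells. Its calls for AII, over the 13 subtypes and over the 5 amacrine subtypes are among those kept, and its call for Cdh3 is not. Called members numbered, for ganglion minus amacrine, 2 with columns as deposited, 3 with a pseudocount of 1 and 2 with the next brightest probe sets (1 to 2 over left-out arrays, 2 without BD ganglion replicate 2 or MP amacrine replicate 2); for bipolar minus amacrine, 2 with the next brightest probe sets, 3 with the median over probe sets and 0 with subtype means as units; for bipolar minus ganglion, 3, 3 and 1 in those settings. For Cdh3 it was 1 with pseudocounts of 64 and 1 and with the stricter filter (1 to 2 over left-out arrays), for BD 0 to 1, for J ganglion 1 with columns as deposited, a pseudocount of 64 and C57BL/6 subtypes only (0 to 1). With the next brightest probe sets starburst and MP amacrine had 3 each, PaxCre 2 and the MP line 1; MP amacrine had 3 with the median (3 to 6 over left-out arrays) and the MP line 1 with a pseudocount of 1. The J line had 1 with columns as deposited (0 to 2). Over the 6 ganglion cell subtypes 2 differed with columns as deposited and with array weights and 0 in C57BL/6 only (1 to 2 over left-out arrays, 2 without BD replicate 1 or Cdh3 replicate 1), and over the 5 amacrine subtypes 5 in C57BL/6 only.

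Reversed values of Slit1 under a pseudocount of 1, which selects the other probe set, and under the next brightest probe set were 2.21 and 1.87 for ganglion minus amacrine, -1.66 and -1.44 for bipolar minus ganglion, 0.38 and 0.27 for MP amacrine, -0.23 and -0.19 for AII and 2.04 and 1.78 for the J line (0.045 with the median); in C57BL/6 only bipolar minus amacrine was -0.58. With the next brightest probe set Robo1 was 0.12 for bipolar minus ganglion and 0.22 for starburst, Slit2 -0.18 for PaxCre and Unc5c -0.036 for ON minus MP bipolar. Robo1 was 0.058 for MP amacrine with the median, and Unc5c -0.91 for starburst in C57BL/6 only. The cause of the changes under other settings was not tested.

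Replicate numbers were not treated as pairs in the main fit. The difference of replicate 1 minus replicate 2 correlated over 0.1 in 21 of 78 pairs of subtypes (lowest -0.23, median 0.03, highest 0.37), so some subtypes deviated together. With the number as a replicate block, 159 of 160 member differences kept their direction and side of the threshold, and J amacrine had 4 called members in place of 3 (Slit1 1.26, adjusted p = 0.0492). Slit3, Unc5a and 1 Dcc probe set lie near the dim end, which limits what they can show.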
